A study of Homo sapiens with 16 samples.

Results

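Primary granule genes were followed through RNA-Seq of MUTZ-3, a human acute myeloid leukemia line with an inversion of chromosome 3 that drives the proto-oncogene EVI1. The set held 10 genes, taken by name: MPO, ELANE, PRTN3, AZU1, CTSG, LYZ, RNASE2, RNASE3, SRGN and MS4A3. They are 10 of 60623 genes in the count files, each on 1 row. In the first experiment, 10 libraries came from untreated cells (0 h) and from cells kept for 12, 24 or 48 h with vehicle (DMSO), with olaparib at 10 µM, or with talazoparib at 1 µM. Both drugs inhibit the DNA repair enzyme PARP1 (PARPi). In the second, 6 libraries came from cells carrying a non-targeting control shRNA (NTC), shEVI1-2531 or shEVI1-2532, harvested at day 3 and day 6 after lentiviral delivery of the pLKO.1 vector and puromycin selection. All cells were the same line in medium with serum, conditioned medium and GM-CSF, and all 6 knockdown libraries, NTC included, came from transduced and selected cells. Each condition was sequenced once, and the model is 1 cell line.

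Primary or azurophil granules are the first granules that neutrophil precursors make, at the promyelocyte stage, and monocyte precursors make related ones. They hold a heme peroxidase, serine proteases and other antimicrobial proteins, packed onto the proteoglycan serglycin. Transcription of the peroxidase and protease genes is known to start in myeloid progenitors under factors such as PU.1, RUNX1, MYB and C/EBP proteins. It stops as granulocytes mature, so mRNA of these genes marks a stage rather than the mature cell. LYZ and SRGN are not such stage markers.

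Levels are given as CPM, read counts scaled to library size, with TMM factors within each experiment. TMM sets libraries to a common level of the bulk of genes. Library totals were 55999673 to 72681943 counts in the PARPi experiment and 95523038 to 120716213 in the knockdown, so 3 counts, taken as the smallest level a library can show, stood for 0.0231 to 0.0627 CPM. A gene was tested where it reached 10 counts in 3 or more of 9 PARPi time-course libraries (17218 genes) or in 2 or more of 6 knockdown libraries (18606 genes), and all 10 granule genes passed in both. Ratios of single libraries carry a 95% interval that covers counting error only. P-values of mean inhibitor effects and of hairpin effects take the time points or days as repeats. A change of such an effect over time therefore counts as error in them. The test of a change with hours takes the hours as predictor instead. All p-values are set against the spread between these libraries. EVI1, listed as MECOM, was at 32.4% and 47.1% of NTC with shEVI1-2531 at day 3 and day 6, and at 12.7% and 11.6% with shEVI1-2532.

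Expressed per kilobase of exon, so that genes can be ranked, MPO, SRGN and LYZ held the top of the order in most libraries. MPO ranged from 170.0 to 1369 CPM per kilobase over the 16 libraries, SRGN from 212.3 to 1943 and LYZ from 87.4 to 3177. PRTN3 and AZU1 took ranks 4 to 6 throughout, with 31.3 to 590.3 and 37.3 to 561.7 CPM per kilobase. RNASE2 moved between rank 3 and rank 8, and ELANE, CTSG and RNASE3 stayed between ranks 6 and 9. MS4A3, which codes for a membrane protein of granulocyte-monocyte progenitors, was last in every library at 0.103 to 0.708 CPM per kilobase, or 22 to 115 counts. In the untreated library MPO made up 70.4% of the summed CPM of the 10 genes and LYZ 7.80%, while after 48 h of talazoparib MPO made up 8.01% and LYZ 54.6%.

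**Figure D1:**
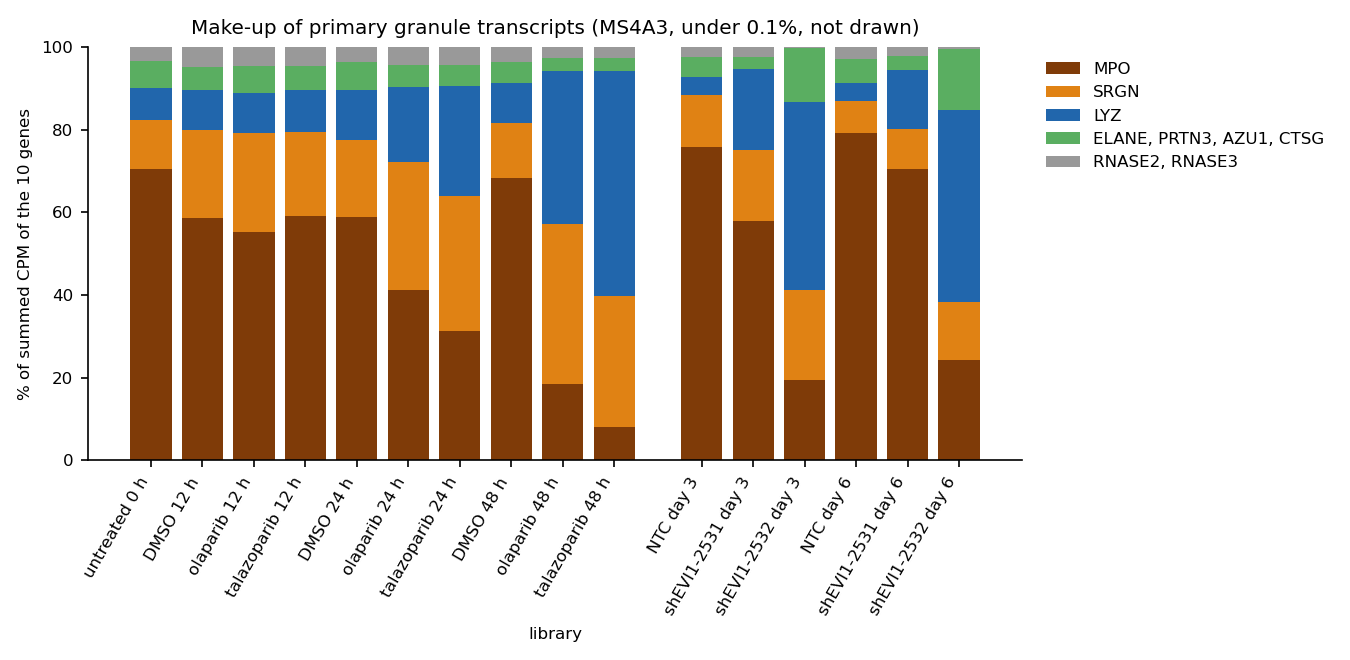
Share of each gene or gene group in the summed CPM of the 10 primary granule genes (y axis, percent), 1 bar per library, PARPi libraries on the left and knockdown libraries on the right. The MPO share is 68.3% with DMSO, 18.5% with olaparib and 8.01% with talazoparib at 48 h, and 75.7% with NTC against 19.5% with shEVI1-2532 at day 3.

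AZU1, PRTN3 and ELANE lie in this order on the plus strand of chromosome 19 (GRCh38), at 825097-832018, 840999-848175 and 851014-856247. AZU1 and PRTN3 are 8980 bases apart and PRTN3 and ELANE 2838, with no annotated gene between them. CTSG is at 24573518-24576250 on the minus strand of chromosome 14, and the same chromosome carries RNASE3 at 20891399-20892348 and RNASE2 at 20955487-20956436, both on the plus strand and 63138 bases apart. MPO is at 58269855-58280935 on the minus strand of chromosome 17, LYZ at 69348341-69354234 on chromosome 12, SRGN at 69088103-69104805 on chromosome 10 and MS4A3 at 60056587-60071115 on chromosome 11, the last 3 on the plus strand. An antisense gene, AC020656.1, overlaps LYZ, and a small RNA gene, Metazoa_SRP, lies inside SRGN. The strand setting of the counting is not given in the sources used here, so reads of overlapping genes may be shared.

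The DNA upstream of the neighbouring proteases and of both ribonucleases is shown because these groups moved in opposite directions with shEVI1-2532. RefSeq promoters (GRCh38.p14) were matched for 6 of 10 genes. MPO, ELANE, LYZ and SRGN had no entry, and MS4A3 is not printed because its window runs into an annotated exon of the gene, which none of the other 5 windows does. The AZU1 window lies between exons of the longer gene span annotated in GENCODE. Each window runs 5′ to 3′ from 150 to 41 bases before the start of its gene, 110 bases in all. Capitals mark the C/EBP letters TTNNGNAA and the PU.1 letters GAGGAA on either strand, and no marked stretch overlaps another.
PRTN3, chr19:840849-840958, plus strand: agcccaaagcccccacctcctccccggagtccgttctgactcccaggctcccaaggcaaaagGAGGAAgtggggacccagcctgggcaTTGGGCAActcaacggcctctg
AZU1, chr19:827687-827796, plus strand: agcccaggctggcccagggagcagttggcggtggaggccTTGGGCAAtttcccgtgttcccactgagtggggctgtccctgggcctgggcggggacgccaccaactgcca
CTSG, chr14:24576291-24576400, minus strand: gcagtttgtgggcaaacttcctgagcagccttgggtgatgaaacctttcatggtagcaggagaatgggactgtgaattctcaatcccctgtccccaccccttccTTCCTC
RNASE2, chr14:20955337-20955446, plus strand: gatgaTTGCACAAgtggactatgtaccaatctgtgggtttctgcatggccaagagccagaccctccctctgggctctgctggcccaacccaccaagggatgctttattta
RNASE3, chr14:20891235-20891344, plus strand: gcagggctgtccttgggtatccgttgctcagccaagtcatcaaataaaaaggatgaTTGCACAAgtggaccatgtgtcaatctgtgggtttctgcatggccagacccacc
The C/EBP letters occurred in 4 of these 5 windows, in PRTN3 and AZU1 as TTGGGCAA and in RNASE2 and RNASE3 as TTGCACAA, and the MS4A3 window held them too. The same letters occurred in 15.9% of 35116 RefSeq promoter windows of this length. The PU.1 letters occurred in PRTN3 and CTSG, against 10.7% of all windows. The MYB letters AACNG (41.5% of all windows) occurred in all but RNASE2, and the RUNX letters TGNGGT (18.7%) in none of these 5. These matches describe letters and not bound sites, and their part in the changes of these genes was not tested. The upstream regions of RNASE2 and RNASE3 aligned over 233 positions with 193 identical (82.8%). Their transcripts were 85.1% identical, but no stretch of 100 bases, the read length, was shared, and the longest shared run was 67 bases.

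With PARPi, 2 genes of the set rose over time against DMSO and 2 fell, while the other 6 did not pass the test. LYZ, the enzyme that cleaves bacterial cell walls, and SRGN, the serglycin core protein that retains granule proteins, gained with each hour step. MPO, the peroxidase that makes hypochlorous acid, and ELANE, neutrophil elastase, lost ground against DMSO. In bulk RNA, a smaller share of cells of a type and less RNA per cell cannot be told apart.

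MPO was at 1308, 1876 and 2457 CPM with DMSO at 12, 24 and 48 h. With olaparib it was at 1261, 1319 and 1003 CPM, and with talazoparib at 1452, 1268 and 599.5 CPM. The inhibitor libraries lay on either side of DMSO at 12 h and were lower at 24 and 48 h, and the DMSO libraries themselves climbed. At 48 h, MPO was at 40.8% of DMSO with olaparib (log2 ratio −1.29, interval −1.31 to −1.28) and 24.4% with talazoparib (−2.04, −2.05 to −2.02). The effect of the inhibitors changed by −0.86 on the log2 scale per doubling of hours (SE 0.13). Testing both slopes jointly, edgeR's quasi-likelihood fit gave a Benjamini-Hochberg adjusted p of 7.87e-10.

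LYZ was at 215.1, 385.5 and 352.3 CPM with DMSO. With olaparib it was at 219.0, 580.7 and 2002 CPM, and with talazoparib at 249.2, 1076 and 4088 CPM. Every inhibitor library was above the DMSO library of its hour, by 1.02-fold in the closest pair (olaparib at 12 h, whose interval of −0.0074 to 0.0591 includes no difference) and by 11.6-fold in the widest (talazoparib at 48 h). The mean slope was 1.45 per doubling of hours (SE 0.14, adjusted p = 6.68e-23, same test).

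SRGN was at 471.9, 592.3 and 476.1 CPM with DMSO, at 546.8, 984.7 and 2091 CPM with olaparib, and at 494.7, 1332 and 2371 CPM with talazoparib. Its DMSO libraries stayed within a narrow band while both inhibitors moved away from it after 12 h, to 4.39-fold and 4.98-fold at 48 h. The mean slope was 1.04 (SE 0.14, adjusted p = 7.51e-12, same test).

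ELANE was low, at 3.75, 8.16 and 8.24 CPM with DMSO. With olaparib it was at 5.34, 6.50 and 5.83 CPM and with talazoparib at 4.33, 6.88 and 3.55 CPM. Olaparib lay above DMSO at 12 h (log2 ratio 0.51, interval 0.28 to 0.74), while the talazoparib ratio of 0.21 had an interval of −0.0303 to 0.44 that includes no difference. Both inhibitors lay below DMSO at 24 and 48 h. The DMSO libraries themselves climbed after 12 h, and the olaparib libraries did not fall below their own 12 h level. The slope of ELANE thus rests in part on the low DMSO library of 12 h. The mean slope was −0.60 (SE 0.16, adjusted p = 0.0059, same test), and DESeq2 gave an adjusted p of 0.0631.

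These 4 genes were the called ones among the 10 (2 higher, 2 lower), where 8.15% of all tested genes were called higher and 8.31% lower. The slope fit had 2 residual degrees of freedom, and its error was shared across genes, so its small p-values do not come from repeated libraries. The median slope was 0.06 over the 10 genes and −0.01 over all genes.

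**Figure D2:**
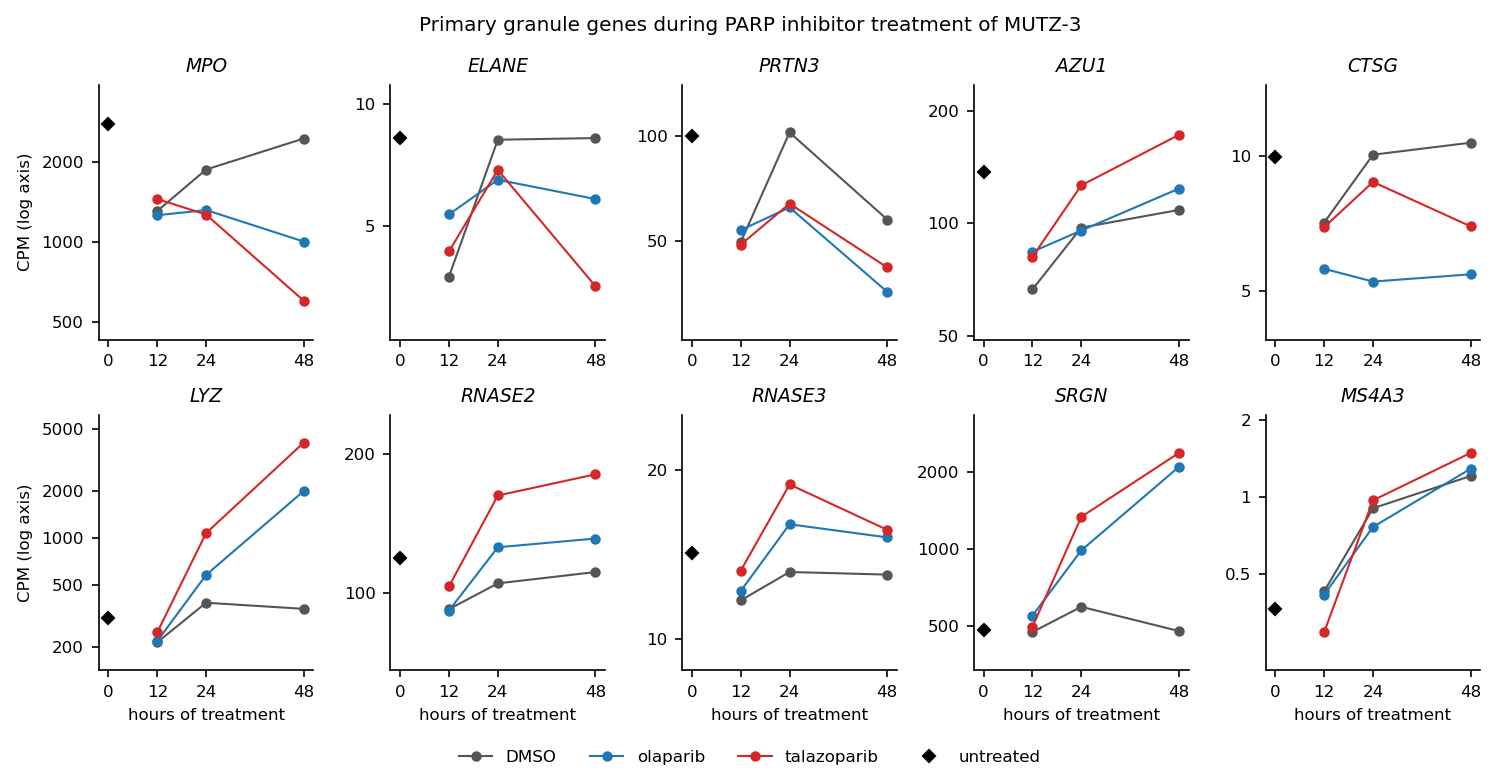
CPM (log axis) of each primary granule gene against hours of treatment, 1 point per library, with DMSO in grey, olaparib in blue, talazoparib in red and the untreated library as a black diamond. LYZ and SRGN climb with both inhibitors up to 4088 and 2371 CPM, MPO drops to 599.5 CPM with talazoparib at 48 h, and RNASE3 stays between 11.7 and 18.8 CPM.

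The remaining proteases did not pass the slope test. PRTN3, proteinase 3, was at 49.7, 102.2 and 57.7 CPM with DMSO, at 53.8, 62.5 and 35.9 CPM with olaparib and at 48.9, 64.1 and 42.2 CPM with talazoparib. The inhibitor libraries were below DMSO at 24 and 48 h, and the mean slope was −0.31 (SE 0.14, adjusted p = 0.152, same test). CTSG, cathepsin G, was at 7.12, 10.1 and 10.7 CPM with DMSO, at 5.61, 5.26 and 5.46 CPM with olaparib and at 6.95, 8.76 and 6.98 CPM with talazoparib. Both inhibitors were below DMSO at each hour, talazoparib at 12 h by less than counting error (interval −0.21 to 0.14), with the lower levels in the olaparib libraries. AZU1, azurocidin, a protease relative that has lost its enzymatic activity and is antimicrobial, was at 66.5, 97.3 and 108.5 CPM with DMSO, at 83.9, 95.6 and 123.7 CPM with olaparib and at 81.3, 126.2 and 172.2 CPM with talazoparib. AZU1 was thus above DMSO in 5 of 6 inhibitor libraries, whereas its neighbour PRTN3 was below DMSO in 5 of 6, the 1 at 12 h by less than counting error (interval −0.0905 to 0.0445).

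RNASE2 (eosinophil-derived neurotoxin) and RNASE3 (eosinophil cationic protein), are both best known from eosinophil granules. RNASE2 ranged from 92.4 to 111.2 CPM with DMSO, from 91.8 to 131.4 CPM with olaparib and from 103.5 to 180.9 CPM with talazoparib. RNASE3 ranged from 11.7 to 13.2, from 12.2 to 16.0 and from 13.2 to 18.8 CPM. MS4A3 ranged from 0.426 to 1.21 CPM with DMSO, from 0.414 to 1.29 with olaparib and from 0.296 to 1.48 with talazoparib, so its groups overlapped. None of these 3 genes passed the slope test.

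Averaged over the time points, none of the 10 genes was called for the mean of both inhibitors in edgeR's quasi-likelihood test, where 4.17% of all genes were called. Of the 10, 8 had an unadjusted p under 0.05, as had 6047 of the 17218 genes tested. DESeq2 called 3 of the 10 (CTSG, MPO, SRGN), and over all genes 1835 higher and 1639 lower. The mean log2 changes were 1.22 for LYZ (SE 0.47, adjusted p = 0.111), 1.02 for SRGN (SE 0.34, adjusted p = 0.0804), −0.76 for MPO (SE 0.29, adjusted p = 0.107) and −0.52 for CTSG (SE 0.14, adjusted p = 0.0610). Olaparib alone called 0 of 10 (0.639% of all genes, 3 of 10 at an unadjusted p under 0.05, 1 with DESeq2) and talazoparib alone 0 of 10 (4.0% of all genes, 7 of 10 unadjusted, 4 with DESeq2). Over all genes, 3161 with olaparib and 6245 with talazoparib had an unadjusted p under 0.05. With the 12 h libraries left out, 5 genes were called for the mean (CTSG, LYZ, MPO, PRTN3, SRGN), 2 for olaparib and 5 for talazoparib. Of 17412 genes, that fit called 2102 higher and 1694 lower for the mean, 862 and 84 for olaparib, and 2214 and 1768 for talazoparib.

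The doses of olaparib and talazoparib differed, so their values stand side by side. At 48 h LYZ was 5.68-fold above DMSO with olaparib and 11.6-fold with talazoparib. Past 2-fold at 48 h were LYZ and SRGN upward (12.0% of all genes) and MPO downward (7.72%) with olaparib, and LYZ and SRGN upward (16.7%) and MPO and ELANE downward (14.4%) with talazoparib. The difference between the treatments was called for 0 of 10 genes and for 0% of all genes with edgeR. At an unadjusted p under 0.05 were 2 of the 10, CTSG with 0.465 (SE 0.17) and RNASE2 with 0.34 (SE 0.13), both higher with talazoparib, and DESeq2 called 0 of the 10. For LYZ the difference was 0.78 (SE 0.50), an error too wide to show that the treatments acted alike.

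The control libraries were not flat. Against DMSO at 12 h, the untreated library had 2.14-fold more MPO, 2.20-fold more ELANE, 2.01-fold more PRTN3 and 2.05-fold more AZU1, while SRGN was at 101.5%. From 12 h to 24 h of DMSO, ELANE went up 2.18-fold and PRTN3 2.06-fold. The inhibitor libraries of 12 h were below the untreated library too, with MPO at 1261 and 1452 CPM against 2799 CPM. The low level of MPO and these 3 proteases was thus shared by the libraries of that hour, and no repeat of them was analysed here.

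Genes with related roles were taken from lists. Over all tested genes, 8.15% rose in slope and 8.31% fell. Of 8 other azurophil granule proteins, 4 were tested and 3 rose in slope: CD63 (0.73, SE 0.13), PRSS57 (0.71, SE 0.24) and BPI (0.67, SE 0.13), where BPI is a bacterial membrane-permeabilising protein. The defensins DEFA1, DEFA1B, DEFA3 and DEFA4 did not pass the filter. Of 12 processing enzymes and inhibitors, 10 were tested and 4 rose, CST3 and the following: SERPINA1, the plasma inhibitor of elastase (0.99, SE 0.13), SERPINB1, a cytosolic inhibitor of the granule proteases (0.66, SE 0.13), and CTSC, which activates those proteases (0.63, SE 0.13). Of 10 secondary and tertiary granule proteins 4 were tested and 3 rose: MMP9 (1.89, SE 0.15), MMP25 (1.24, SE 0.15) and CAMP (1.21, SE 0.30). Among 9 transcription factors known at granule gene promoters, 5 rose and 0 fell. CEBPE, a factor of late granulocyte maturation, had the steepest slope of them at 1.04 (SE 0.14), ahead of CEBPD (0.64, SE 0.14) and CEBPB (0.43, SE 0.14), SPI1 and CEBPA being the others. CEBPB was also the 1 factor called for the mean of both inhibitors, at 0.92 (SE 0.19).

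Chromosomal neighbours were read in the same way. Next to MPO, TSPOAP1 had a mean change of −1.08 (SE 0.18, adjusted p = 0.0293 by edgeR) and EPX, eosinophil peroxidase, one of 0.65 (SE 0.14, adjusted p = 0.0480). Beside ELANE, CFD, complement factor D, had a slope of 0.73 (SE 0.14), opposite in sign to ELANE. Of 19 neighbours 11 were tested, of which 2 (CFD, RNASE6) rose and 4 (LPO, TSPOAP1, YEATS4, SUPV3L1) fell in slope. The shares over all tested genes were 8.15% and 8.31%.

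Markers of other cell types moved too, where 8.15% of all tested genes rose in slope and 8.31% fell. Of 8 monocyte markers 7 rose in slope, and their summed level went from 874.7 to 1055 CPM over the DMSO libraries to 7862 CPM with olaparib and 12420 CPM with talazoparib at 48 h, with none of the 8 at 0. Most of the sum was S100A8 and S100A9, at up to 3779 and 8078 CPM, while CD14 reached at most 96.1 CPM. Of 5 eosinophil markers 3 rose, with a summed level of 736.0 to 1026 CPM with DMSO and up to 6474 CPM with talazoparib, most of it CLC. Of the basophil and mast cell markers 1 of 3 tested rose in slope (TPSAB1), of the megakaryocyte markers 1 of 3 (PPBP), and of the lymphoid markers 0 of 4 by edgeR, with 2 at an unadjusted p under 0.05. The mean of both inhibitors called the basophil and mast cell marker FCER1A higher by 3.71 (SE 0.55, edgeR adjusted p = 0.0207), at 1 to 64 counts a library, and the megakaryocyte marker ITGA2B higher by 0.87 (SE 0.14, edgeR adjusted p = 0.0253). The 4 erythroid markers summed to at most 0.188 CPM and did not pass the filter. The part of the monocyte and eosinophil markers in the changes of LYZ and SRGN was not tested. MECOM also fell in slope (−0.94, SE 0.13), from 61.8 CPM with DMSO to 9.98 CPM with talazoparib at 48 h, and how it relates to the granule genes within these libraries was not tested.

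After EVI1 knockdown, the hairpins gave different pictures. The deposited files of both shEVI1-2531 libraries carry another hairpin number in their names, so which hairpin these values belong to rests on the labels. With shEVI1-2532, 6 of the 10 genes rose, the 4 proteases or protease relatives together with LYZ and SRGN, and both ribonucleases fell. With shEVI1-2531, LYZ, SRGN and PRTN3 rose, and ELANE and CTSG fell. All genes called in either hairpin were tested in 1 model with the day as a factor and 2 residual degrees of freedom.

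ELANE was at 11.6 and 9.40 CPM with NTC at day 3 and day 6. It was at 1.18 and 1.79 CPM with shEVI1-2531 and at 89.6 and 83.8 CPM with shEVI1-2532. The 3 pairs of libraries were far apart without overlap, with the hairpins on opposite sides of NTC. The log2 fold change was −2.81 (SE 0.22, adjusted p = 1.36e-05, edgeR's quasi-likelihood test) with shEVI1-2531 and 3.05 (SE 0.21, adjusted p = 8.46e-07) with shEVI1-2532. The difference between the hairpins was 5.86 (SE 0.24, adjusted p = 2.78e-07), or 58.0-fold.

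PRTN3 was at 62.5 and 61.3 CPM with NTC, at 73.3 and 113.6 CPM with shEVI1-2531 and at 465.0 and 676.5 CPM with shEVI1-2532. Every knockdown library was above NTC, by 1.17-fold to 11.0-fold. The log2 fold changes were 0.55 (SE 0.16, adjusted p = 0.0339, same test) and 3.17 (SE 0.17, adjusted p = 1.90e-07). The call with shEVI1-2531 ended without that hairpin's day 6 library (0.39, adjusted p of 0.161) and without NTC at day 6 (0.28, adjusted p of 0.311, both edgeR), and scaling by library total alone gave 0.39 with an adjusted p of 0.123.

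AZU1 was at 133.0 and 118.4 CPM with NTC, at 85.3 and 120.8 CPM with shEVI1-2531 and at 681.5 and 1002 CPM with shEVI1-2532. The shEVI1-2531 libraries fell below and just above NTC, while shEVI1-2532 was clear of both. The log2 fold change with shEVI1-2532 was 2.71 (SE 0.18, adjusted p = 6.85e-07, same test), and with shEVI1-2531 −0.32 (SE 0.17, adjusted p = 0.221). The latter rests on the control used, at 0.0033 without NTC at day 3 and −0.63 without NTC at day 6 (edgeR adjusted p = 0.0357).

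CTSG was at 7.48 and 7.61 CPM with NTC, at 5.15 and 4.33 CPM with shEVI1-2531 and at 34.7 and 20.5 CPM with shEVI1-2532. Like ELANE, it lay on opposite sides of NTC, but with smaller steps. The log2 fold changes were −0.69 (SE 0.21, adjusted p = 0.0390, same test) and 1.83 (SE 0.21, adjusted p = 3.16e-05). The former call ended without the day 3 library of shEVI1-2531 (−0.62, adjusted p = 0.140) and without NTC at day 6 (−0.37, adjusted p = 0.323, both edgeR).

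LYZ was at 197.2 and 154.2 CPM with NTC, at 1143 and 973.8 CPM with shEVI1-2531 and at 4464 and 5605 CPM with shEVI1-2532. It was the gene of the set with the largest change with shEVI1-2532, in edgeR and in each alternative run for that hairpin. The log2 fold changes were 2.59 (SE 0.17, adjusted p = 4.15e-06, same test) and 4.85 (SE 0.19, adjusted p = 4.56e-08), and the difference of 2.26 (SE 0.17) had an adjusted p of 1.33e-05.

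SRGN was at 556.9 and 259.0 CPM with NTC, at 1015 and 661.5 CPM with shEVI1-2531 and at 2124 and 1689 CPM with shEVI1-2532. All 3 groups lost SRGN from day 3 to day 6, NTC to 46.5% of its day 3 level, and within each day the order NTC, shEVI1-2531, shEVI1-2532 was kept. The log2 fold changes were 1.09 (SE 0.17, adjusted p = 9.98e-04, same test) and 2.31 (SE 0.175, adjusted p = 1.53e-06).

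MPO was at 3336 and 2722 CPM with NTC, at 3393 and 4827 CPM with shEVI1-2531 and at 1913 and 2927 CPM with shEVI1-2532. At day 3 shEVI1-2531 matched NTC within 1.02-fold and shEVI1-2532 was at 57.4%, and at day 6 shEVI1-2532 was at 107.5% and shEVI1-2531 at 177.3%. Neither hairpin was called against NTC (0.40, SE 0.19, adjusted p = 0.174, and −0.37, SE 0.19, adjusted p = 0.146, same test), but they differed from each other by −0.77 (SE 0.19, adjusted p = 0.0121). Without NTC at day 3 shEVI1-2531 was called (0.81, edgeR adjusted p = 0.0329) and shEVI1-2532 was at 0.022, and without NTC at day 6 shEVI1-2532 was called (−0.77, edgeR adjusted p = 0.0140). shEVI1-2532 was also called with library totals alone (−0.67, adjusted p = 0.0138), with no filter (−0.39, adjusted p = 0.0076), without its day 6 library (−0.61, adjusted p = 3.99e-04) and without the day 6 library of shEVI1-2531 (−0.36, adjusted p = 0.0314, all edgeR). shEVI1-2531 was also called with no filter (0.40, adjusted p = 0.0125), without either library of shEVI1-2532 (0.43 in both) and in the 4 libraries of shEVI1-2531 and NTC (0.43, adjusted p = 9.80e-04, all edgeR). The most abundant granule transcript of the untreated cells was thus not among those that rose with shEVI1-2532.

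RNASE2 was at 92.0 and 93.5 CPM with NTC, at 127.5 and 130.4 CPM with shEVI1-2531 and at 11.3 and 37.5 CPM with shEVI1-2532. RNASE3 followed at 11.0 and 7.70, 18.4 and 16.4, and 1.60 and 4.96 CPM. In both genes the order was shEVI1-2531, NTC, shEVI1-2532 without overlap, and with shEVI1-2532 the day 6 level was 333.2% (RNASE2) and 309.5% (RNASE3) of the day 3 level. With shEVI1-2531 neither was called in the fit to all libraries. RNASE2 was at 0.47 (SE 0.31, adjusted p = 0.323, same test) and RNASE3 at 0.88 (SE 0.36, adjusted p = 0.114). The log2 fold changes with shEVI1-2532 were −2.08 (SE 0.33, adjusted p = 3.23e-04, same test) and −1.58 (SE 0.38, adjusted p = 0.0060). Without the day 3 library of shEVI1-2532 they were −1.31 and −0.71, the latter with an adjusted p of 0.0525, and without its day 6 library −3.02 and −2.69. Without NTC at day 3 RNASE3 was at −1.08 with an edgeR adjusted p of 0.0671, and DESeq2 gave RNASE3 an adjusted p of 0.0753. MS4A3 was at 0.911 and 0.671 CPM with NTC, 0.584 and 0.216 with shEVI1-2531, and 0.603 and 0.799 with shEVI1-2532, and was not called.

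**Figure D3:**
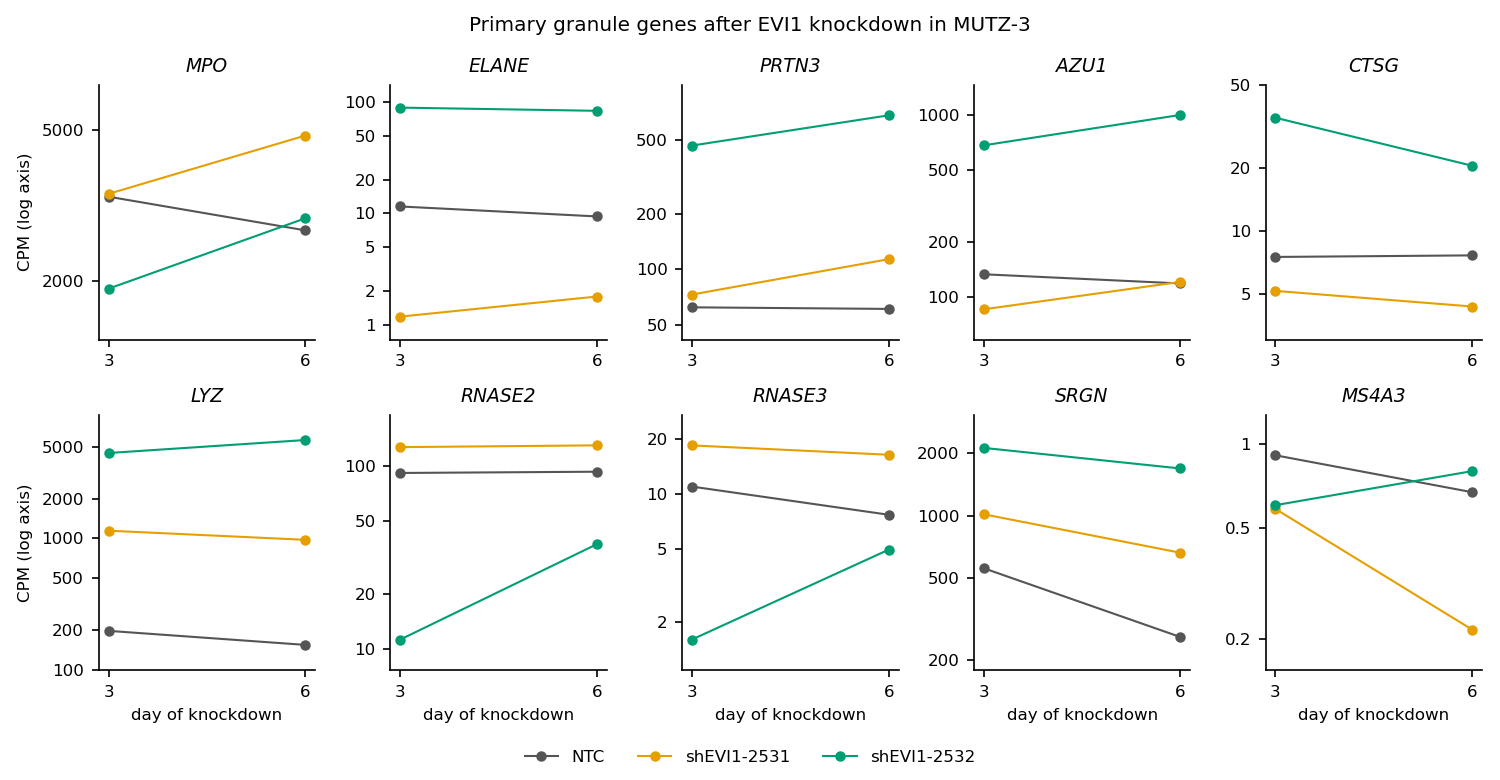
CPM (log axis) of each primary granule gene at day 3 and day 6, 1 point per library, with NTC in grey, shEVI1-2531 in orange and shEVI1-2532 in green. ELANE and CTSG lie on opposite sides of NTC in the hairpins (ELANE 1.18 to 1.79 against 83.8 to 89.6 CPM), LYZ and SRGN are above NTC in both, and RNASE2 and RNASE3 are below NTC with shEVI1-2532.

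In counts, shEVI1-2532 called 6 of 10 genes higher, where 21.2% of all genes were, and 2 lower, where 19.9% were. shEVI1-2531 called 3 higher (9.49% of all genes) and 2 lower (7.90%). The hairpins differed in 9 of 10 genes, 6 higher with shEVI1-2532 (12.2% of all genes) and 3 lower (12.0%). The median log2 fold change of the 10 genes was 2.07 with shEVI1-2532 and 0.44 with shEVI1-2531, against 0 and 0.01 over all genes. With both hairpins taken as 1 group, 0 of the 10 were called, and with only the 4 libraries of shEVI1-2531 and NTC that hairpin had 9 calls in place of 5. Over all genes, the fit to 4 libraries called 2039 higher and 1848 lower of 18091.

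**Figure D4:**
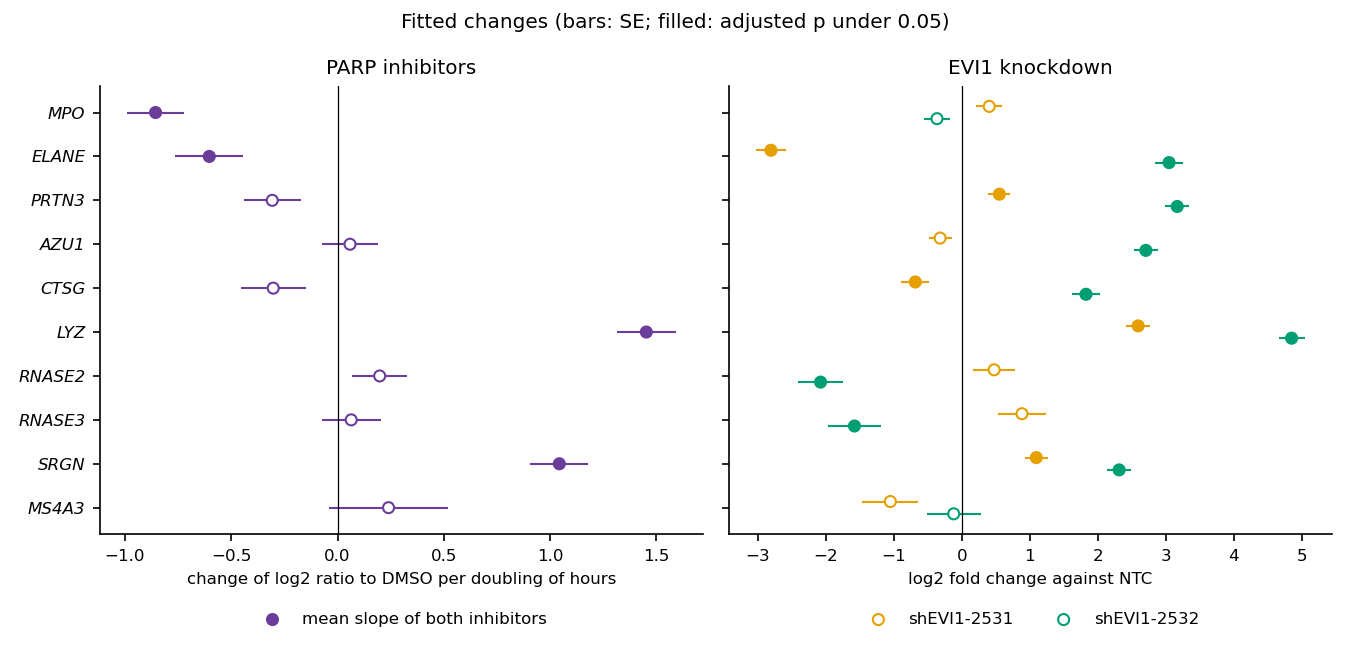
Fitted changes of the primary granule genes with their SE (bars), filled where the adjusted p was under 0.05. The left panel gives the mean slope of both inhibitor effects per doubling of hours, from −0.86 for MPO to 1.45 for LYZ, and the right panel the log2 fold change against NTC with each hairpin, where ELANE lies at −2.81 and 3.05.

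The side lists gave the following counts with the knockdown. Over all tested genes, 21.2% were called higher and 19.9% lower with shEVI1-2532, and 9.49% and 7.90% with shEVI1-2531. Of the 4 tested azurophil proteins outside the set, 4 rose with shEVI1-2532, CD68 by 2.31 (SE 0.73, on 4 to 25 counts a library), PRSS57 by 2.19 (SE 0.25) and BPI by 1.93 (SE 0.21), together with CD63, and with shEVI1-2531 CD63 alone rose, by 0.61 (SE 0.13). Of 10 processing enzymes and inhibitors, 6 rose and 1 (CST7) fell with shEVI1-2532, and 6 rose with shEVI1-2531. SLPI, a secreted inhibitor of elastase and cathepsin G, rose by 4.05 (SE 0.22) and 1.77 (SE 0.20), and SERPINA1 by 3.17 (SE 0.17) and 1.10 (SE 0.16), in that order of hairpins. Of 6 secondary and tertiary granule proteins tested, 4 (MMP9, TCN1, CAMP, MMP25) and 2 (MMP9, MMP25) rose with shEVI1-2532 and shEVI1-2531, led by the gelatinase MMP9 at 5.98 (SE 0.33) and 2.97 (SE 0.29).

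Of 9 transcription factors, 6 rose with shEVI1-2532 and 4 (CEBPB, CEBPD, CEBPA, SPI1) with shEVI1-2531, where 21.2% and 9.49% of all tested genes rose. CEBPD rose by 1.74 (SE 0.15) and 1.13 (SE 0.15), and CEBPB by 1.62 (SE 0.15) and 1.53 (SE 0.15). SPI1, which codes for PU.1, rose by 1.00 (SE 0.13) with shEVI1-2532, and CEBPA by 1.11 (SE 0.13) with shEVI1-2531. Between hairpins, CEBPD (0.61), SPI1 (0.43) and RUNX1 (0.39) were higher with shEVI1-2532, where 12.2% of all tested genes were. The part of these factors in the granule gene changes was not tested.

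Of 12 chromosomal neighbours tested, 4 (CFD, RNASE6, R3HDM4, TSPOAP1) rose and 3 (EPX, YEATS4, SUPV3L1) fell with shEVI1-2532. The shares over all tested genes were 21.2% higher and 19.9% lower. CFD, downstream of ELANE, rose by 2.35 (SE 0.14), and RNASE6, a relative of RNASE2 and RNASE3, rose by 1.29 (SE 0.18) where those fell. EPX fell by 1.86 (SE 0.34) on the log2 scale with shEVI1-2532 and by 3.44 (SE 0.37) with shEVI1-2531.

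Monocyte markers summed to 1318 and 943.4 CPM with NTC, 1983 and 1547 CPM with shEVI1-2531 and 5480 and 4326 CPM with shEVI1-2532, and 6 of 8 rose with each hairpin. S100A8 and S100A9 weighed most in these sums, at up to 1421 and 3580 CPM, while CD14 reached at most 25.5 CPM. Eosinophil markers summed to 1888 and 1357 CPM with NTC, 4691 and 2012 CPM with shEVI1-2531 and 2276 and 2596 CPM with shEVI1-2532. Most of each sum was CLC, at 1201 to 4603 CPM, so the sum follows 1 gene. It was above NTC with shEVI1-2532 at both days, where RNASE2 and RNASE3 were below NTC and EPX fell in the fit. Of the 5, CLC and PRG3 rose and EPX fell with shEVI1-2532, and CLC rose and EPX fell with shEVI1-2531. Megakaryocyte markers had 1 of 3 tested higher and 1 lower with shEVI1-2531 and 2 lower with shEVI1-2532, and lymphoid markers 2 of 4 lower with each. Basophil and mast cell markers had 1 of 3 higher with shEVI1-2531, and 2 higher and 1 lower with shEVI1-2532. Over all tested genes, shEVI1-2532 called 21.2% higher and 19.9% lower, and shEVI1-2531 9.49% and 7.90%. The part of these cell types in the granule gene changes was not tested.

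Log2 ratios to the control of the same hour or day were set side by side over the 10 treated libraries, several of which share a control library, across 8682 genes with a mean of at least 10 CPM. Most like LYZ were HP (haptoglobin, Pearson r = 0.994), PSAP (prosaposin, 0.990) and ATP6V1B2 (a proton pump subunit, 0.989). Most like SRGN were SERPINB1 (0.990), VMP1 (0.989) and STX11 (0.987). Most like MPO were AHCYL1 (0.976), TSTD2 (0.970) and UAP1 (0.969), and most like ELANE were RAB14 (0.940), JAK1 (0.936) and EIF2A (0.934). CTSG lay below the level required. ELANE passed it only through the shEVI1-2532 libraries (89.6 and 83.8 CPM) and was at 1.18 to 11.6 CPM elsewhere, so its likeness may rest on them. The genes named are the highest of 8682 over 10 libraries, and their r values were not tested.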

How the data were processed

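RNA was extracted from MUTZ-3 cells in 16 libraries, 10 with PARPi or controls and 6 with shRNAs, prepared with a stranded mRNA kit and read as 100 bp pairs. The submitters' processing notes name STAR, Picard and featureCounts (no version given) and the build GRCh38, and the annotation and strand setting are not given in the sources used here. The authors deposited raw counts per gene for each library, which were used, and TPM, computed by the authors from these counts over the whole gene span, which served only as a check of the counts.

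Groups came from the labels, although the files of both shEVI1-2531 libraries carry another hairpin number in their names. Counts were fitted with edgeR 4.0.16 (TMM, quasi-likelihood test, Benjamini-Hochberg adjustment over all genes tested, threshold 0.05) with terms for the hour or day and for every inhibitor or shRNA, leaving 4 (PARPi), 2 (slope) and 2 (knockdown) residual degrees of freedom. The slope test took both inhibitors' slopes jointly, and the value given is their mean. SE is the size of the log2 change over the root of F. The untreated library was compared by ratios only. Per-kilobase levels used exon lengths of GENCODE release 29.

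Alternatives were DESeq2 1.42.0, upper quartile normalization, library totals only, no filter, leaving out a time point or 1 of the knockdown libraries (the NTC libraries added after seeing the data), 4 libraries of 1 hairpin, and both hairpins as 1 group. Steps were tested on simulated data. Named are all 10 genes, MECOM, up to 3 called genes per side list with the largest change, and the 3 most correlated genes. Genes named only to complete a count (such as CST7 or YEATS4) fall outside this rule and were chosen after their values were seen. The 10 genes, the lists and the tests were chosen with earlier results of these data known.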

Additional observations from a re-analysis of the deposited data

Results flagged for a closer look

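For 4 of the 10 genes the inhibitor effect differed between time points, by edgeR's quasi-likelihood test of both slopes with Benjamini-Hochberg adjustment. Over all tested genes, 8.15% were called higher in slope and 8.31% lower. DESeq2 did not call the slope of ELANE. Per doubling of hours the mean slope was 1.45 for LYZ (adjusted p = 6.68e-23), 1.04 for SRGN (adjusted p = 7.51e-12), −0.86 for MPO (adjusted p = 7.87e-10) and −0.60 for ELANE (adjusted p = 0.0059).

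For 9 of the 10 genes the effect against NTC differed between the hairpins, by the same tool. Over all tested genes, 12.2% were called higher with shEVI1-2532 than with shEVI1-2531 and 12.0% lower. shEVI1-2532 minus shEVI1-2531 was 5.86 for ELANE, 3.03 for AZU1, 2.62 for PRTN3, 2.51 for CTSG, 2.26 for LYZ and 1.22 for SRGN on the log2 scale. It was −2.55 for RNASE2, −2.46 for RNASE3 and −0.77 for MPO. The adjusted p ran from 2.78e-07 for ELANE to 0.0121 for MPO. MECOM itself differed by −1.70 (SE 0.20, adjusted p = 1.38e-04), and its part in these differences was not tested.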

How the results depend on the processing

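Of 262 repeats of the 26 called changes of single genes, 240 kept direction and call, 19 lost the call and 3 reversed. The labels carry no replicate numbers, and each comparison was made within hours or days through the hour or day term of the fit.

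Counts of called genes among the 10 moved as follows. For the mean inhibitor effect, DESeq2 called 3, no filter on low counts 5 and the leave-one-out fits 0 to 5. For olaparib they were 1, 2 and 0 to 2, and for talazoparib 4, 4 and 0 to 5. The knockdown fits without 1 library leave 1 library in a group, so their calls are not counted here. Leaving out NTC libraries was chosen after seeing the data. For shEVI1-2531, no filter and the fit to 4 libraries each called 9. Over all genes these called 2075 higher and 1924 lower of 32252, and 2039 and 1848 of 18091. The main fit called 1765 and 1470 of 18606. Both hairpins as 1 group called 0.

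Library totals alone shifted the median of all genes from that with TMM by −0.30 (shEVI1-2532), −0.17 (shEVI1-2531), −0.11 (slope), −0.10 (talazoparib) and −0.13 (difference of hairpins) on the log2 scale. The split of all genes then was 2360 higher and 5957 lower with shEVI1-2532 (3942 and 3706 with TMM), 1049 and 2270 with shEVI1-2531 (1765 and 1470), 864 and 1971 in slope (1404 and 1431), 162 and 17 with talazoparib (516 and 172), and 1524 and 3000 between hairpins (2271 and 2234).

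Across all genes, DESeq2 called 1835 higher and 1639 lower for the mean inhibitor effect (544 and 174 with edgeR), 584 and 85 for olaparib (110 and 0) and 1965 and 1775 for talazoparib (516 and 172). Without 24 h edgeR called 0 genes in each of these 3. With no filter it called 2057 and 1671 of 33282 genes for the mean, 852 and 125 for olaparib, and 2154 and 1722 for talazoparib. Both hairpins as 1 group called 158 and 150.

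Reversals without a leave-out were these. MS4A3 was 0.011 for the mean inhibitor effect with upper quartile normalization, and −0.10 with library totals and −0.0028 with no filter for talazoparib. Library totals gave PRTN3 −0.0065 between inhibitors, and AZU1 −0.048 and RNASE3 −0.043 in slope. Both hairpins as 1 group gave MPO 0.0695 and RNASE3 0.16 against shEVI1-2532, and ELANE 2.08, AZU1 1.87, CTSG 1.04 and RNASE2 −0.28 against shEVI1-2531, where averaging unlike hairpins sets the value. Leaving out 1 time point or library turned values not called in all libraries over these ranges: ELANE −0.57 to 0.015 (mean), −0.43 to 0.074 (olaparib); MS4A3 −0.15 to 0.060 (mean), −0.16 to 0.026 (olaparib), −0.14 to 0.20 (talazoparib), −0.086 to 0.27 (between inhibitors), −0.82 to 0.47 (shEVI1-2532); MPO −0.77 to 0.022 (shEVI1-2532); AZU1 −0.63 to 0.0033 (shEVI1-2531); MPO −0.36 to 0.082 and PRTN3 −0.0565 to 0.13 (between inhibitors). Apart from the grouped hairpins, the cause was not tested. The slope could not be refitted without a time point.

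Of the 10 genes, depth limits MS4A3 most, with 22 to 115 counts a library.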
